A study of Mus musculus with 13 samples.

Results

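The genes described here are 8 multi-domain members of the BCL2 family, taken by name from the 49585 genes to which the deposited transcript estimates could be summed. Bax, Bak1 and Bok form the effector group of 3, and Bcl2, Bcl2l1, Bcl2l2, Mcl1 and Bcl2l10 form the mostly pro-survival group of 5. They were measured by RNA-seq in 13 libraries of oocytes from cultured ovaries of 5-day-old CD-1 mice, 4 ovaries per time point, that received gamma radiation from caesium. For 0.5 Gy there were 8 libraries, a pair for each of 0, 1 and 4 h and a single one for 2.5 and for 6 h, and for 0.2 Gy there were 5, with 1 at each of the same times. The 0 h libraries were taken before irradiation and stand for the unirradiated background. By their labels, replicate 1 of 0.5 Gy was of generation 1, all other 0.5 Gy libraries, 2.5 and 6 h included, were of generation 2, and all 0.2 Gy libraries were of generation 3, so that dose and generation cannot be told apart. Nothing further says how replicates differ in their source, and p-values measure the spread between these libraries, which may be technical.

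Proteins of this family decide whether the outer mitochondrial membrane stays intact. BAX and BAK1 oligomerize in that membrane and open it for cytochrome c, survival proteins bind and restrain them, and BH3-only proteins such as PUMA and NOXA release that restraint or act on the effectors directly. In resting oocytes DNA damage activates TAp63α, a relative of p53, and Bax is known as a p53 target in other cells. Much of the control of this family acts on proteins, through binding, relocation and degradation, and is not seen in RNA.

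Depth was 15709549 to 30430104 estimated reads per library, the lowest in the 0.5 Gy 0 h library of replicate 2. The 0.2 Gy libraries of 0 and 1 h held 42767 and 42984 genes with reads, and every other library held 39439 or fewer. Early and late libraries of 0.2 Gy thus also differed in genes detected, and the part of this in their differences was not tested. All 8 genes passed the filter on low counts. Bak1 had the fewest reads, 41 to 159 per library, and Bax had 434 to 3205. Summed over the 12 oocyte markers, among them Ddx4, Gdf9 and Zp3, libraries held 3295 to 5212 CPM (counts scaled to equal library totals), and all 12 were detected in each library. Markers of other cell types were also present. The 9 granulosa markers summed to 1240 to 2219 CPM, the 6 stromal markers to 1788 to 3460 CPM and the 4 red blood cell markers to 510 to 4763 CPM, with no listed marker of these types at 0. The 4 endothelial markers summed to 62.7 to 125 CPM and the 6 leukocyte markers to 37.6 to 256 CPM, the highest in the 0.5 Gy 0 h library of replicate 2. In bulk RNA, fewer cells of a type and less RNA per cell cannot be told apart.

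Bax, the effector that moves from the cytosol to mitochondria in dying cells, is encoded on the minus strand at chr7:45461697-45466898 (GRCm38, GENCODE). It was the member whose level differed most between early (0 and 1 h) and late (2.5, 4 and 6 h) libraries of 0.5 Gy. The promoter of Bax is shown because it is the only one of 9 RefSeq promoter windows, for 7 of the 8 genes, that holds the 10-base repeat unit of the p53-family response element. The window runs from 250 bases before to 50 bases after the start, at chr7:45466849-45467148 on the minus strand of GRCm38.p6, and capitals mark the match, 201 to 192 bases upstream of the start.

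Bax promoter: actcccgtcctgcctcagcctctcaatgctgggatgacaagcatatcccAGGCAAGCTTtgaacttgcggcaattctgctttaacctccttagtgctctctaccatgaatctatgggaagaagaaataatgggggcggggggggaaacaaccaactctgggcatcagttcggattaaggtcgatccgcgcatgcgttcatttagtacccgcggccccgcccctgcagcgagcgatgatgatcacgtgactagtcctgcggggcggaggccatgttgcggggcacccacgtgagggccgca

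The consensus reads the same on both strands and was the only motif searched. It is found in 2745 of 32851 RefSeq promoter windows of this length, or 8.36%, so that 1 match among 9 windows is a description and not a binding site. No window was given for Bcl2l10.

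In the 0.5 Gy series, the level of Bax in CPM normalized by the trimmed mean of M-values (TMM) was 42.2 and 29.5 before irradiation, 47.8 and 55.6 after 1 h, 77.2 after 2.5 h, 64.4 and 121 after 4 h and finally 113 after 6 h, replicate 1 first where there were replicates. All 4 late libraries were above all 4 early ones, the lowest late library being the 4 h library of replicate 1. The means were 94.0 ± 27.4 CPM (SD, n = 4) late and 43.8 ± 11.0 CPM (SD, n = 4) early. The fitted difference was 1.10 on the log2 scale (SE 0.22, 2.15-fold), with an unadjusted p of 0.000154 and an adjusted p of 0.0859 by the quasi-likelihood test of edgeR with Benjamini-Hochberg adjustment over 28493 genes. It therefore missed the threshold of 0.05. Of the 8 genes, 0 were called in this comparison, against 0.126% of all genes tested, 2 had an unadjusted p under 0.05, Bax and Bcl2l1, as did 10.2% of all genes, and the Wald test of DESeq2 called 1, Bax. In DESeq2 the difference in Bax was 1.10 on the log2 scale with an adjusted p of 0.000614, where 2.09% of genes were called. Without the 0.5 Gy 4 h library of replicate 1, edgeR gave 1.27 with an adjusted p of 0.0291, and this was the only library whose removal brought a call. In CPM, Bax was the 1 gene of the 8 whose early and late libraries did not overlap at 0.5 Gy, where 2.81% of all genes were higher late with no overlap. In TPM (reads divided by length and scaled to equal totals) those of Bak1 did not overlap either, at 0.685 to 0.808 early and 0.821 to 1.46 late. The share of all genes without overlap was not counted in TPM. In some late libraries much of Bak1 TPM lay on a transcript with few reads, described below.

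**Figure D1:**
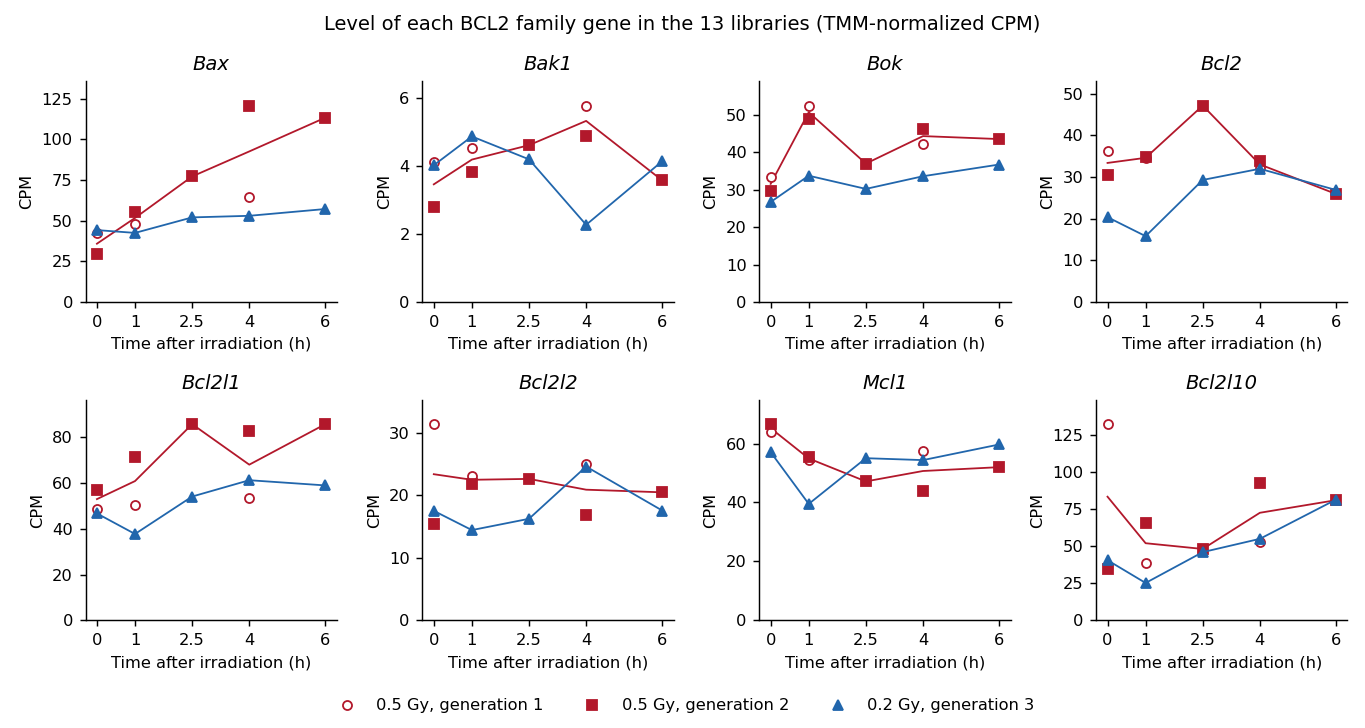
Level of each gene (TMM-normalized CPM, y axis from 0) against time after irradiation in hours, 1 point per library. Red marks 0.5 Gy (open circles generation 1, squares generation 2), blue triangles 0.2 Gy, and lines join the means. Bax at 0.5 Gy stood between 64.4 and 121 CPM late and between 29.5 and 55.6 CPM early.

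Set against 0 h alone among the 8 libraries of 0.5 Gy, the fitted difference in Bax was 0.56 after 1 h (SE 0.35), 1.14 after 2.5 h (SE 0.42), 1.40 after 4 h (SE 0.36) and 1.71 after 6 h (SE 0.41) on the log2 scale. The adjusted p-values by edgeR were 1.00, 0.875, 0.707 and 0.627, all above the threshold. The single libraries of 2.5 and 6 h were assumed to vary like the pairs at the other times, so that these errors and p-values hold no spread of their own and a missed threshold says little about Bax at these times. With 2 libraries at 0 h and 1 at 2.5 and 6 h, edgeR called 0 of 28468 genes (0.0%) at any of the 4 times, 1133 to 1691 had an unadjusted p under 0.05, and DESeq2 called 32 to 142. With generation as a replicate block edgeR called 0, 1, 6 and 7 genes at 1, 2.5, 4 and 6 h. By DESeq2 the adjusted p for Bax was 0.0523 at 4 h and 0.0545 at 6 h.

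Within each generation the late libraries of Bax at 0.5 Gy were above the early ones. In generation 1 the mean was 45.0 CPM in 2 early libraries and 64.4 CPM in the late one, a log2 ratio of 0.52. In generation 2 it was 42.5 CPM in 2 early libraries and 104 CPM in 3 late ones, a log2 ratio of 1.29. The red blood cell markers summed to 1666 to 2634 CPM in early and 1912 to 4763 CPM in late libraries of 0.5 Gy, the highest being both 4 h libraries, replicate 1 at 4763 CPM, where Bax was the lowest of the late libraries, and replicate 2 at 4314 CPM, where Bax was the highest. The oocyte markers summed to 3817 to 5212 CPM early and 4035 to 4769 CPM late. Their part in the difference was not tested.

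After 0.2 Gy, Bax was at 44.2, 42.5, 52.0, 53.0 and 57.2 CPM, from 0 h to 6 h. The 3 late libraries were above both early ones, but the range was narrow and lay below every late library of 0.5 Gy. The difference was 0.32 on the log2 scale (SE 0.28, edgeR adjusted p = 0.814). The late-against-early difference at 0.2 Gy minus that at 0.5 Gy was -0.78 (SE 0.35), with an unadjusted p of 0.0411 and an adjusted p of 0.519 by edgeR, so that the doses were not shown to differ in it. Averaged over both doses the difference was 0.71 (SE 0.18), with adjusted p = 0.232 by edgeR and 0.0217 by DESeq2.

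At 0.2 Gy, 0 of the 8 genes were called by edgeR, where 0.0983% of genes were, 1 had an unadjusted p under 0.05, as did 7.77% of genes, and DESeq2 called 0, and 0.684% of genes. Averaged over both doses 0 were called, where 0.179% of genes were, 3 had an unadjusted p under 0.05, as did 8.37% of genes, and DESeq2 called 1, and 1.03% of genes. For the difference between the doses the counts were 0 by edgeR, with 0.0702% of genes called, 2 with an unadjusted p under 0.05, against 9.31% of genes, and 0 by DESeq2, against 0.947% of genes. The median of the 8 differences was 0.04 at 0.5 Gy, 0.30 at 0.2 Gy and 0.23 over both doses, while the medians over all genes were -0.02, -0.02 and -0.01.

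**Figure D2:**
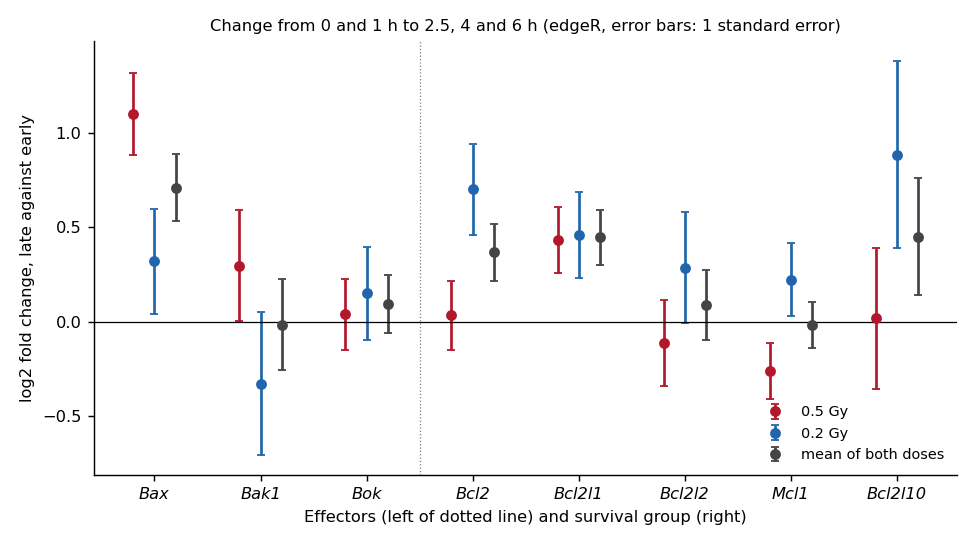
Fitted log2 fold change of late (2.5, 4 and 6 h) against early (0 and 1 h) libraries for each gene at 0.5 Gy (red), 0.2 Gy (blue) and averaged over both (grey); points are edgeR estimates and bars 1 standard error. Bax at 0.5 Gy lies highest, at 1.10.

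Known radiation responders were called at 0.5 Gy. By edgeR, the cell cycle inhibitor Cdkn1a rose by 3.32 (adjusted p = 0.00279), the p53 antagonist Mdm2 by 2.64 (adjusted p = 0.00384) and cyclin G1, Ccng1, by 1.95 (adjusted p = 0.00739) on the log2 scale, and these 3 were called at this dose under every alternative run. The value of Bax was below all 3. At 0.2 Gy the differences were 1.28 for Cdkn1a (edgeR adjusted p = 0.538), 1.82 for Mdm2 (edgeR adjusted p = 0.183) and 1.02 for Ccng1 (edgeR adjusted p = 0.471), and none of the 3 was called.

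Bak1, the effector that resides in the mitochondrial membrane (chr17:27019810-27029009, minus strand), had the lowest level of the 8. In the 0.5 Gy libraries it was at 4.12 and 2.78 CPM before irradiation, 4.53 and 3.83 after 1 h, 4.60 after 2.5 h, 5.76 and 4.86 after 4 h and finally 3.57 after 6 h. After 0.2 Gy the values in time order were 4.01, 4.86, 4.19, 2.26 and 4.13 CPM. In CPM, early and late libraries overlapped at 0.5 and 0.2 Gy alike, with log2 differences of 0.30 (SE 0.30, edgeR adjusted p = 0.775) and -0.33 (SE 0.38, edgeR adjusted p = 0.868). In TPM they were apart at both doses, in opposite directions. Late libraries were higher at 0.5 Gy and lower at 0.2 Gy, at 0.794 to 1.01 against 1.14 to 1.23 TPM early. Of its distinct 30-base sequences, 11.4% also lie in transcripts of other genes, mostly Ggnbp1, and its few reads may be split between them.

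Bok, a BAX-like protein that can act without the other effectors (chr1:93685660-93695764, plus strand), was at 33.4 and 29.7 CPM before irradiation with 0.5 Gy, 52.5 and 49.0 after 1 h, 37.0 after 2.5 h, 42.3 and 46.4 after 4 h and finally 43.6 after 6 h. Its highest libraries were thus those at 1 h and its lowest those at 0 h. The 1 h difference from 0 h was 0.71 on the log2 scale (SE 0.26), with an unadjusted p of 0.0251 and an edgeR adjusted p of 1.00. After 0.2 Gy Bok lay between 26.7 CPM at 0 h and 36.8 CPM at 6 h. Late libraries differed from early ones by 0.04 at 0.5 Gy (SE 0.19, edgeR adjusted p = 0.965) and 0.15 at 0.2 Gy (SE 0.24, edgeR adjusted p = 0.923).

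Bcl2l1, which encodes the survival protein BCL-XL (chr2:152780668-152831728, minus strand), had a positive difference of similar size at each dose. In the 0.5 Gy series it was at 48.9 and 57.2 CPM before irradiation, 50.3 and 71.6 after 1 h, 85.8 after 2.5 h, 53.6 and 82.7 after 4 h and finally 85.9 after 6 h. Generation 1 was low throughout, at 48.9 to 53.6 CPM, so the late group held both the highest libraries and 1 within the early range. After 0.2 Gy it was at 46.8, 37.8, 54.2, 61.3 and 59.0 CPM in time order, the 3 late libraries above the early ones. The log2 difference was 0.43 at 0.5 Gy (SE 0.18), 0.46 at 0.2 Gy (SE 0.23) and 0.45 over both (SE 0.15), with edgeR adjusted p-values of 0.414, 0.668 and 0.404. Within generation 1 the log2 ratio of late to early means was 0.11, and within generation 2 it was 0.40.

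Bcl2, the survival gene that named the family (chr1:106538178-106714274, minus strand), stayed between 25.9 and 47.2 CPM after 0.5 Gy, with its highest library at 2.5 h and its lowest at 6 h. After 0.2 Gy it was at 20.4, 15.8, 29.3, 32.0 and 26.9 CPM in time order. The late libraries of 0.2 Gy were all above the early ones, with a log2 difference of 0.70 (SE 0.24, edgeR unadjusted p = 0.0109, adjusted p = 0.507). At 0.5 Gy the difference was 0.03 (SE 0.18), and that between the doses was 0.67 (SE 0.30, edgeR unadjusted p = 0.0420, adjusted p = 0.523). Of its 30-base sequences 6.27% are shared, mostly with the antisense gene D630008O14Rik.

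Mcl1, whose survival protein is short-lived in cells (chr3:95658788-95663176, plus strand), was at 63.8 and 66.6 CPM before irradiation with 0.5 Gy, 54.3 and 55.5 after 1 h, 47.1 after 2.5 h, 57.4 and 43.9 after 4 h and finally 52.0 after 6 h. In CPM both 0 h libraries were above every later one, and late and early libraries overlapped. In TPM the 0 h library of replicate 1, at 4.89, was below 1 h replicate 2 (5.15), 4 h replicate 1 (5.12) and 6 h (5.25). The difference of late from early was -0.26 on the log2 scale at 0.5 Gy (SE 0.15, edgeR adjusted p = 0.584), and -0.14 when TPM were tested. After 0.2 Gy the values were 57.1, 39.5, 55.0, 54.4 and 59.7 CPM in time order, lowest at 1 h, and the difference was 0.22 (SE 0.19, edgeR adjusted p = 0.810).

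Bcl2l2, encoding BCL-W (chr14:54883377-54888234, plus strand), was at 15.3 to 31.4 CPM after 0.5 Gy, both ends being 0 h libraries, and at 14.4 to 24.6 CPM after 0.2 Gy. Its log2 differences were -0.11 (SE 0.23, edgeR adjusted p = 0.906) and 0.28 (SE 0.29, edgeR adjusted p = 0.849), and they changed sign when TPM were tested. Of its 30-base sequences 12.8% are shared, nearly all with Gm20521.

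Bcl2l10, a family member known for high expression in oocytes (chr9:75347758-75351632, plus strand), varied most between replicates. At 0 h of 0.5 Gy replicate 1 held 132 CPM and replicate 2 held 34.3 CPM, while their oocyte markers summed to 4671 and 4540 CPM. The other 0.5 Gy libraries lay between 38.6 and 92.2 CPM, so that early and late libraries overlapped widely (log2 difference 0.02, SE 0.37, edgeR adjusted p = 0.993). After 0.2 Gy it was at 40.5, 25.2, 45.9, 54.9 and 81.3 CPM in time order, with the late libraries all above the early ones and a log2 difference of 0.89 (SE 0.50, edgeR adjusted p = 0.705). Like Bax, Bcl2 and Bcl2l1, it was thus among 4 of the 8 genes whose late libraries at 0.2 Gy were all higher, where 13.2% of all genes were. A further 19.1% of all genes were lower in all late libraries of this dose.

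The reads of Bax can also be set against those of other members within a library. Per read of the 5 survival genes together, Bax had 0.135 to 0.238 reads in the early and 0.292 to 0.448 in the late libraries of 0.5 Gy, and at 0.2 Gy 0.243 and 0.320 early and 0.233 to 0.259 late. Early and late libraries were thus apart at 0.5 Gy and overlapped at 0.2 Gy. For each read of Mcl1 there were 0.661 and 0.442 reads of Bax before irradiation, 0.879 and 1.00 after 1 h, 1.64 after 2.5 h, 1.12 and 2.75 after 4 h and finally 2.18 after 6 h. Late libraries were all above early ones, and at 0.2 Gy the 5 libraries ranged from 0.775 at 0 h to 1.08 at 1 h, with the late ones between. Per read of Bcl2l1, Bax had 0.515 to 0.951 reads in early and up to 1.46 in late libraries of 0.5 Gy, the 2.5 h library lying within the early range, and 0.945 and 1.12 early and 0.864 to 0.969 late at 0.2 Gy. Such ratios are of reads and not of molecules, since the genes differ in length, and they were given no test.

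**Figure D3:**
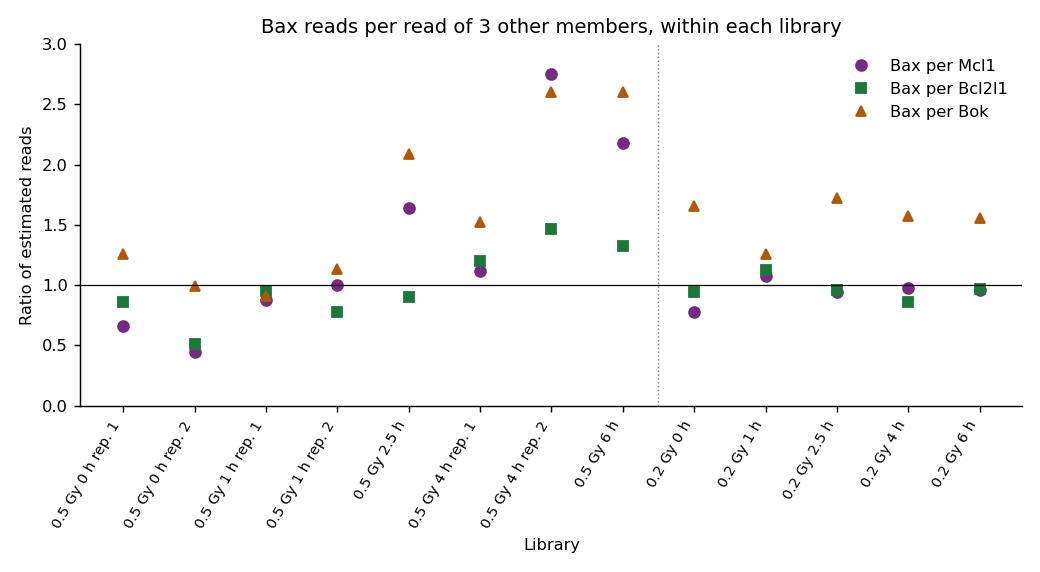
Ratio of estimated Bax reads to those of Mcl1 (circles), Bcl2l1 (squares) and Bok (triangles) within each library (x axis); the horizontal line marks equal reads and the dotted line parts 0.5 Gy (left) from 0.2 Gy. Bax per Mcl1 reaches 2.75 in the 4 h library of replicate 2 at 0.5 Gy and stays at or below 1.08 at 0.2 Gy.

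Per transcript length, levels in TPM, which divide reads by length and scale to equal totals, fell in the order Bax, Bcl2l10, Bok, Bcl2l1, Mcl1, Bcl2l2, Bcl2 and Bak1. The means over the 13 libraries were 283 ± 134 TPM for Bax, 19.3 ± 7.77 for Bcl2l10, 15.5 ± 3.06 for Bok, 14.4 ± 4.71 for Bcl2l1, 5.07 ± 0.747 for Mcl1, 2.70 ± 0.370 for Bcl2l2, 1.74 ± 0.458 for Bcl2 and 0.942 ± 0.233 for Bak1 (SD over all conditions). The ranges of Bcl2l10, Bok and Bcl2l1 overlapped, as did those of Bcl2l2 with Bcl2 and of Bcl2 with Bak1. Mcl1, at 3.81 to 6.79 TPM, overlapped with neither neighbour, which stood at 8.70 TPM or more and 3.27 TPM or less. This separation did not hold in CPM per kilobase of mean effective length. There Mcl1, at 22.3 to 37.1, overlapped with Bcl2l1 (34.4 to 74.9) and Bcl2l2 (10.3 to 22.8). By the same quantity the mean of Bok, 78.7, was above that of Bcl2l10, 66.3.

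The height of Bax on the TPM scale rests on Bax-204, a transcript of 222 bases to which salmon gave a median of 82.8% of Bax TPM but 17.0% of its reads. Without it Bax stood at 48.4 ± 25.7 TPM, with a range of 23.3 to 104 that overlaps that of Bcl2l10, and it was the highest gene in 12 of 13 libraries instead of all 13. After that removal the 4 late libraries of 0.5 Gy, at 47.3 to 104 TPM, still did not overlap the early ones, at 23.3 to 39.6 TPM.

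**Figure D4:**
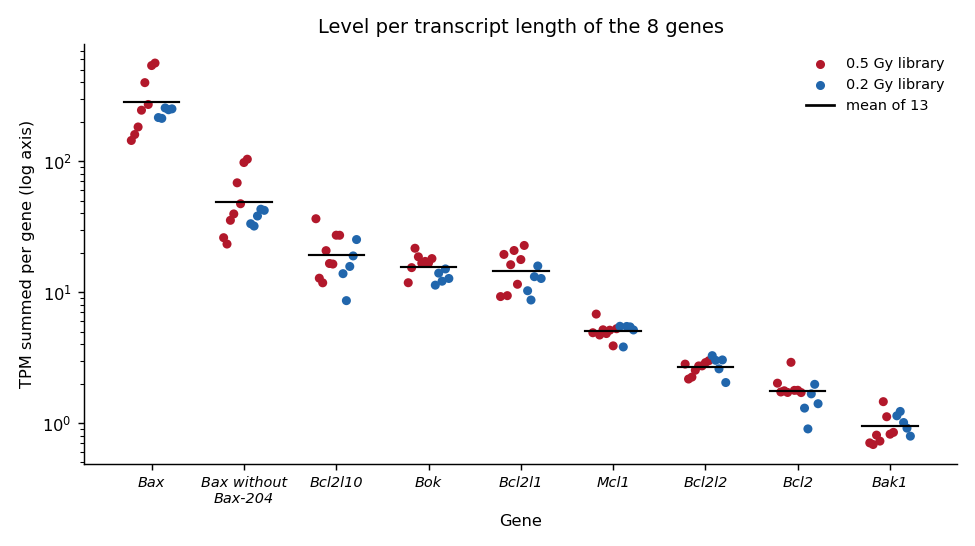
TPM summed per gene on a log axis for each of the 13 libraries (red 0.5 Gy, blue 0.2 Gy) with the mean as a black line; genes are ordered by mean, and Bax is also shown without the short transcript Bax-204. The mean of Bax falls from 283 to 48.4 TPM without it, and Bak1 is lowest at 0.942 TPM.

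Among the 6 annotated Bax transcripts, Bax-201, of 867 bases, took the most reads, a median of 49.3% over the 13 libraries. Its share was 50.0 to 69.7% in the early and 38.1 to 49.2% in the late libraries of 0.5 Gy, which did not overlap. In CPM, however, Bax-201 was at 14.7 to 34.6 early and 31.5 to 49.4 late, which did overlap. Bax-202, of 343 bases, had 6.13 to 9.73% of reads early and 9.40 to 15.3% late, and Bax-203, of 1100 bases, 1.85 to 5.20% early and 5.89 to 9.73% late. At 0.2 Gy the share of Bax-201 was 46.9 and 49.3% early and 44.8 to 56.7% late. These shares are estimates by salmon from 30-base reads, and 11.3% of the 30-base sequences of Bax are shared with other genes, mostly Gm45808.

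**Figure D5:**
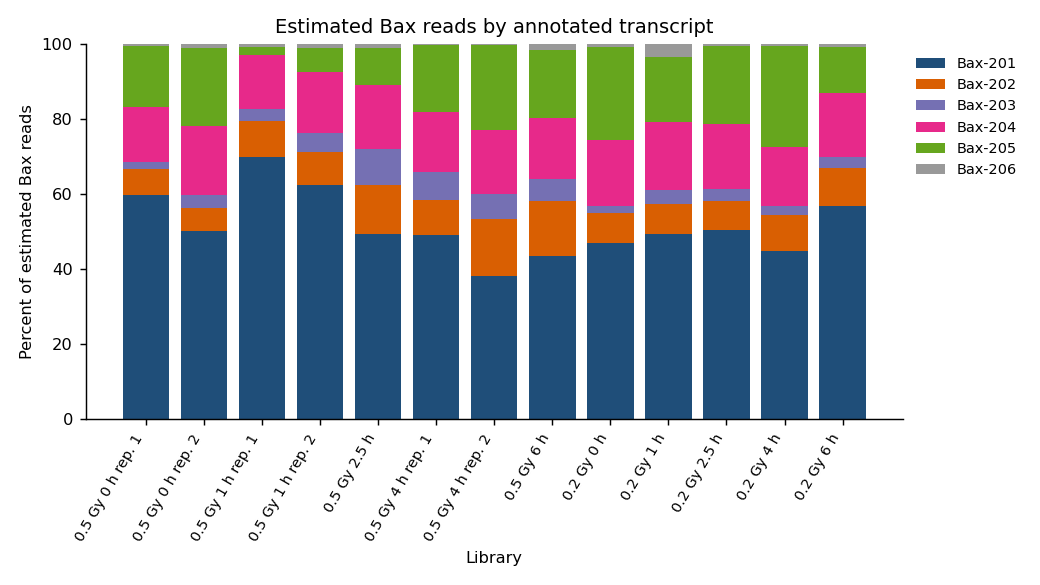
Percent of estimated Bax reads given to each of the 6 annotated transcripts (stacked colours, y axis 0 to 100) in each library (x axis). Bax-201 takes 50.0 to 69.7% in the 4 early libraries of 0.5 Gy and 38.1 to 49.2% in the 4 late ones.

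Between the doses, with time as a covariate, all 8 genes had a lower fitted level at 0.2 than at 0.5 Gy by edgeR. When TPM were tested, Bak1 and Bcl2l2 were higher, their TPM lying in part on transcripts with few reads. The median log2 difference of the 8 genes by edgeR was -0.39 against 0.03 over all genes. By edgeR 0 were called, where 0.00351% of genes were, 3 had an unadjusted p under 0.05 (Bok, Bcl2 and Bcl2l1), as did 11.5% of genes, and DESeq2 called 1, Bok, and 2.1% of genes. Bok was at 32.2 ± 3.84 CPM (SD, n = 5) at 0.2 Gy and 41.7 ± 7.84 CPM (SD, n = 8) at 0.5 Gy, a difference of -0.36 (SE 0.12, adjusted p = 0.345) by edgeR and -0.38 with an adjusted p of 0.0493 by DESeq2. For Bcl2 the difference was -0.51 (SE 0.18, edgeR adjusted p = 0.345), and for Bcl2l1 it was -0.42 (SE 0.16, edgeR adjusted p = 0.367). The comparison joins dose with generation. The 0 h libraries, which had no radiation, also stood lower at 0.2 Gy for Bok and Bcl2, at 26.7 against 29.7 and 33.4 CPM and at 20.4 against 30.5 and 36.2 CPM. They did so too for Bcl2l1 and Mcl1. For Bax the 0 h library of 0.2 Gy was higher, at 44.2 against 42.2 and 29.5 CPM. For Bak1, Bcl2l2 and Bcl2l10 it lay between those of 0.5 Gy.

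Over the 13 libraries of mixed dose and time, the levels of Bax and Bcl2l1 went together most closely of the 28 pairs (r = 0.76 of log2 CPM), and Bax and Mcl1 ran most strongly against each other (r = -0.48). The points share generation, dose and depth, and the values are a description. Among 10059 protein-coding genes with a mean of at least 10 CPM, the one most like Bax was Dcxr (r = 0.97), that most like Bak1 was Cdpf1 (r = 0.84) and that most like Bok was Ephb4 (r = 0.88). For the survival group these were Rnf32 for Bcl2 (r = 0.88), Prc1 for Bcl2l1 (r = 0.92), Kdm1a for Bcl2l2 (r = 0.94), Pcf11 for Mcl1 (r = 0.92) and Gtdc1 for Bcl2l10 (r = 0.94), each over 13 libraries and picked as the highest of many.

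Of 38 other genes of the pathway, 1 was called by edgeR in the late against early comparison at 0.5 Gy, where 0.126% of all genes were, 6 had an unadjusted p under 0.05 upward and 2 downward, where 10.2% of genes had one in either direction, and DESeq2 called 1, where it called 2.09% of genes. The called gene was Pmaip1, which encodes the BH3-only protein NOXA, an antagonist of MCL1, and which is named here after its values were seen. Pmaip1 was at 0.889 and 2.44 CPM before irradiation with 0.5 Gy, 3.76 and 1.75 after 1 h, 16.2 after 2.5 h, 11.7 and 46.0 after 4 h and finally 20.9 after 6 h. Late libraries were all above early ones, with a log2 difference of 3.42 (SE 0.60, edgeR adjusted p = 0.0419). The call was lost with limma on TPM (adjusted p = 0.159), with generation as a replicate block (edgeR adjusted p = 0.124) and on omission of any 0.5 Gy library but the 4 h library of replicate 1 or of the 6 h library of 0.2 Gy, where the adjusted p by edgeR reached 0.144. After 0.2 Gy Pmaip1 was at 1.95, 7.73, 6.15, 21.9 and 10.4 CPM in time order. The 2.5 h library lay below that of 1 h, so that early and late libraries overlapped, and the log2 difference was 1.41 (SE 0.73, edgeR adjusted p = 0.687). Averaged over both doses edgeR called 0 of the 38, where 0.179% of all genes were called, 4 had an unadjusted p under 0.05, all upward, near the 8.37% of all genes, and DESeq2 called 2, a BH3-only gene and a gene of protein turnover, where it called 1.03% of genes. At 0.2 Gy edgeR called 0, where 0.0983% of all genes were called, 3 had an unadjusted p under 0.05, all upward, near the 7.77% of all genes, and DESeq2 called 0, where it called 0.684% of genes. By group, 10 of 10 BH3-only genes, 7 other BCL2 family genes, 6 mitochondrial partners, 5 regulators of protein turnover and 10 downstream genes were tested in these comparisons. Their median differences at 0.5 Gy were 0.30, 0.15, -0.12, -0.20 and 0.11, against -0.02 over all genes.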

How the data were processed

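The authors isolated oocytes by trypsin treatment and repeated centrifugation, made cDNA with the SMARTER kit and quantified 30-base reads with salmon against an Ensembl annotation of GRCm38; the labels also name DESeq2 1.24.0. Whether reads were single or paired is given differently in the sources. The deposited files hold estimated counts and TPM, by the authors, for 130740 transcripts per library; 402 transcripts without a gene (at most 0.495% of reads) were left out. Tables of the authors' own comparisons and their merged normalized counts were not used. Here, estimated counts were summed per gene, rounded, filtered with filterByExpr, TMM-normalized and tested with edgeR 4.0.16 (glmQLFit, glmQLFTest; R 4.3.3), with Benjamini-Hochberg adjustment over all genes tested and a threshold of 0.05. TPM were summed per gene for levels between genes. DESeq2 1.42.0, limma 3.58.1 on log2(TPM + 1), other filters and scalings, a generation block and omission of each library were alternatives. Same-numbered 0.5 Gy libraries of 0, 1 and 4 h share a labelled generation, whose meaning is not given in the sources used here. They deviated together with r of 0.13 (0 and 1 h), 0.078 (0 and 4 h) and 0.11 (1 and 4 h). The test scripts were tested on simulated data. The 8 genes and the lists were chosen with earlier results of these data known. Named genes are the 8, for each the most alike gene, 3 response genes, and genes of the pathway list called over both doses; Pmaip1 falls outside this rule. Intervals from standard errors cover the spread between libraries; depth per library was 15709549 to 30430104 estimated reads.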

Additional observations from a re-analysis of the deposited data

Results flagged for a closer look

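In 32 sets of 4 to 8 libraries of 1 gene, 2 held a library far from the others by Dixon's ratio of gap to range, and chance marks about 1 set in 20. Bcl2l1 in the late libraries of 0.5 Gy was lowest in the 4 h library of replicate 1, at 53.6 CPM, where the next was 82.7 CPM (ratio 0.901, critical value 0.829). Mcl1 over the 5 libraries of 0.2 Gy was lowest at 1 h, at 39.5 CPM, where the next was 54.4 CPM (ratio 0.737, critical value 0.710).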

How the results depend on the processing

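Of 744 alternative values of the 8 genes in the late-against-early comparisons and that of the doses, 696 kept direction and side of the threshold, 44 changed sign and 4 gained a call, none losing one. The gains were Bax at 0.5 Gy and over both doses and Bok between doses with DESeq2, and Bax at 0.5 Gy without the 4 h library of replicate 1. Outside the omission of single libraries, sign changes were of log2 differences that edgeR never called. Mcl1 over both doses became 0.00294 with no filter, 0.021 with limma on TPM and 0.00296 without 2.5 h, and Bak1 became 0.00214 with no filter, 0.022 with limma and 0.0338 with the block, and 0.084 between doses with limma. Bcl2l2 with limma became -0.034 over both doses, 0.16 at 0.5 Gy, -0.23 at 0.2 Gy, -0.39 for the difference and 0.064 between doses, and 0.019 at 0.5 Gy with the block. Bcl2 at 0.5 Gy became -0.15 without 2.5 h. On omission of 1 library Bak1, Bcl2l2 and Mcl1 over both doses ranged from -0.084 to 0.10, -0.014 to 0.18 and -0.13 to 0.13, Bok, Bcl2, Bcl2l2 and Bcl2l10 at 0.5 Gy from -0.069 to 0.20, -0.15 to 0.15, -0.24 to 0.087 and -0.17 to 0.58, and Bok and Mcl1 at 0.2 Gy from -0.0027 to 0.34 and -0.0097 to 0.52. For the difference, Bok and Bcl2l1 ranged from -0.059 to 0.29 and -0.15 to 0.19, and between doses Bak1 and Mcl1 from -0.23 to 0.15 and -0.13 to 0.070. Genes called numbered 51 over both doses, 36 at 0.5 Gy, 28 at 0.2 Gy, 20 for the difference and 1 between doses, and became 277, 422, 168, 217 and 447 with DESeq2 and 118, 13, 201, 111 and 0 with limma. With no filter 58 were called between doses, and without 2.5 h, 13 at 0.2 Gy and 9 for the difference. On omission of 1 library the counts were 8 to 58, 7 to 48, 8 to 33, 4 to 22 and 0 to 5. Against 0 h, where edgeR called 0 genes at 1, 2.5, 4 and 6 h, DESeq2 called 32, 108, 138 and 142, no filter gave 30, 56, 80 and 78, limma gave 4 at 2.5 h, and omission of 1 library 0 to 4, 0 to 7, 0 to 10 and 0 to 6. Replicate numbers at 0.5 Gy followed the labelled generation at 0, 1 and 4 h, while the single libraries of 2.5 and 6 h were of generation 2. With generation as the replicate block Bax at 0.5 Gy was 1.02 (edgeR adjusted p = 0.157) and Pmaip1 lost its call (edgeR adjusted p = 0.124), 48, 29, 34 and 30 genes were called in the 4 late-against-early comparisons, and 0, 1, 6 and 7 at 1, 2.5, 4 and 6 h; no block could be fitted between doses. Bax was the highest gene in 12 libraries by CPM per kilobase and, in an alternative chosen after seeing the data, in 12 without Bax-204. The cause of these shifts was not tested.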
